A study of Mus musculus with 21 samples.

Results

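Cytosolic ribosomal protein genes were examined in left ventricular RNA from 21 male mice. A gene was included when its symbol was Rpsa or was built of Rps, Rpl or Rplp and a number, with or without a closing a, x, l, al or l1, and when its mean count over the 21 libraries was 50 or more. The rule gave 78 genes out of 55450 in the count table and out of 87 with a fitting symbol, so they were selected on their own mean counts. Just inside the minimum lay Rps23 with a mean of 62.9 counts, Rps29 with 63.6 and Rps6 with 67.4. Just outside it lay Rps27 with 49.0 and Rps10 with 43.0, followed by Rpl23a, Rpl36al, Rpl29, Rpl24, Rpl39l, Rps12l1 and Rpl10l. Of the 78 genes, 45 encode proteins of the large 60S subunit, 30 of the small 40S subunit and 3 the P proteins of the stalk (Rplp0, Rplp1 and Rplp2). GENCODE annotates 75 of them as protein coding and 3 as processed pseudogenes (Rps4l, Rpl6l and Rpl32l). The rule passes over the ribosomal proteins with other symbols such as Fau, Rack1 and Rps3a1, which stand in a separate list below.

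The mice were of the 129S6/SvEv strain. WT-CD (n = 5) were wild-type mice on the control diet (CD), and WT-EMPA (n = 5) were wild-type mice on the same diet with empagliflozin (EMPA), an inhibitor of the sodium-glucose cotransporter of the kidney, at 0.15 mg per g of diet. R403Q-CD (n = 7) and R403Q-EMPA (n = 4) were heterozygous for an amino acid change in Myh6, which encodes α-myosin heavy chain, a model of hypertrophic cardiomyopathy, and received these 2 diets; the labels write the allele Myh6+/R404Q and name it R403Q. The study's methods place RNA sampling after 2 weeks of diet and the series gives an age of 12 weeks, whereas the sample labels give 16 weeks of diet. All cells of the heart carry the germline mutation, and counts per gene cannot check a point mutation. Each library came from 1 mouse, and no female was studied.

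Ribosomal proteins assemble with ribosomal RNA into the particles that translate all cytosolic messages. Their mRNAs are abundant in almost every cell and are made in step, because most of the proteins are needed in equal number. Most carry a 5′ terminal oligopyrimidine (TOP) motif, a C at the first transcribed base followed by a run of C and T, through which mTORC1, the kinase complex that links nutrients to growth, controls their translation. Striated muscle is unusual in that it also expresses Rpl3l, a muscle paralog of Rpl3, whose protein sits near the peptidyl transferase centre.

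RefSeq start sites (GRCm38.p6) were at hand for 58 of the 78 genes, and 20 had no entry. The window from 10 bases before the start to 20 bases after it, read on the coding strand, is shown for 8 genes with a run, chosen after the windows were seen, and for Rpl3l, which has none. Where a gene had several annotated starts, the window with the longest run is shown. Capitals mark the longest run of C and T where it reached 7 bases or more, wherever in the window it lay. In Rps27l it lay wholly before the annotated start.
Rps6 (chr4:86857348-86857377, minus strand): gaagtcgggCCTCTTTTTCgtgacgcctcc
Rpl13a (chr7:45128726-45128755, minus strand): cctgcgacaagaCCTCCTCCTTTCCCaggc
Rpl15 (chr14:18270967-18270996, minus strand): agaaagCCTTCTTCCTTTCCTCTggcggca
Rpl35a (chr16:33056472-33056501, plus strand): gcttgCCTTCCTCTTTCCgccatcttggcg
Rpl38 (chr11:114668570-114668599, plus strand): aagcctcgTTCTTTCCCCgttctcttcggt
Rplp2 (chr7:141447641-141447670, plus strand): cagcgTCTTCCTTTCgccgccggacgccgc
Rpl22l1 (chr3:28805498-28805527, plus strand): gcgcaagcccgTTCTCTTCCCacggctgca
Rps27l (chr9:66946076-66946105, plus strand): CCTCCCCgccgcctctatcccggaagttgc
Rpl3l (chr17:24727816-24727845, plus strand): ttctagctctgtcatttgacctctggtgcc
A run of 7 or more C or T on the coding strand lay in a window of 31 of the 58 genes (53.4%), against 20.5% of all 27025 genes with an entry. Here, and for the stricter form that follows, a gene counted when any of its annotated starts met the condition. The stricter form, a C exactly at the annotated start with 4 more C or T after it, was met by 12 of the 58 (20.7%) and by 3.01% of all genes. The window of Rpl3l held no run of 7, nor did those of the paralogs Rpl22 and Rpl7l1 or of Rpl10, Rpl5, Rps16, Rps7 and Rpsa. An annotated start can lie some bases from the true one, so the absence of a run says only that these letters are not in this window.

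Many of these genes share their sequence with near-identical copies elsewhere in the genome. Ribosomal protein genes have left many processed pseudogenes, and the authors counted only read pairs that aligned to a single place. A search with the coding sequences found 487 annotated genes that matched one of the 78 with 95% identity or more over 80% or more of its length, 462 of them processed pseudogenes. Such copies belonged to 66 of the 78 genes. The copies together held a mean of 226059 counts per library and the 78 genes themselves 259100.

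For 39 of the 78 genes the copies held more counts than the gene, and for 19 the gene had under 10% of the joint counts. Rps6, a 40S protein phosphorylated downstream of mTORC1, had a mean of 67.4 counts, 1.19% of the joint counts with its 11 copies. Rpl3 had 107 counts, 3.12% of the joint counts. At the other end the search found no copy for 12 genes, among them Rpl3l, Rplp2 and Rps27l. Of these 12, 9 are protein-coding, while Rps4l, Rpl6l and Rpl32l are annotated as pseudogenes and were searched with their whole transcripts. None of the 78 was counted as a copy of another. Rpl22, Rpl32 and Rpl7l1 held over 99% of theirs. How many of the counts on a copy came from transcripts of the parent gene was not tested.

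**Figure D1:**
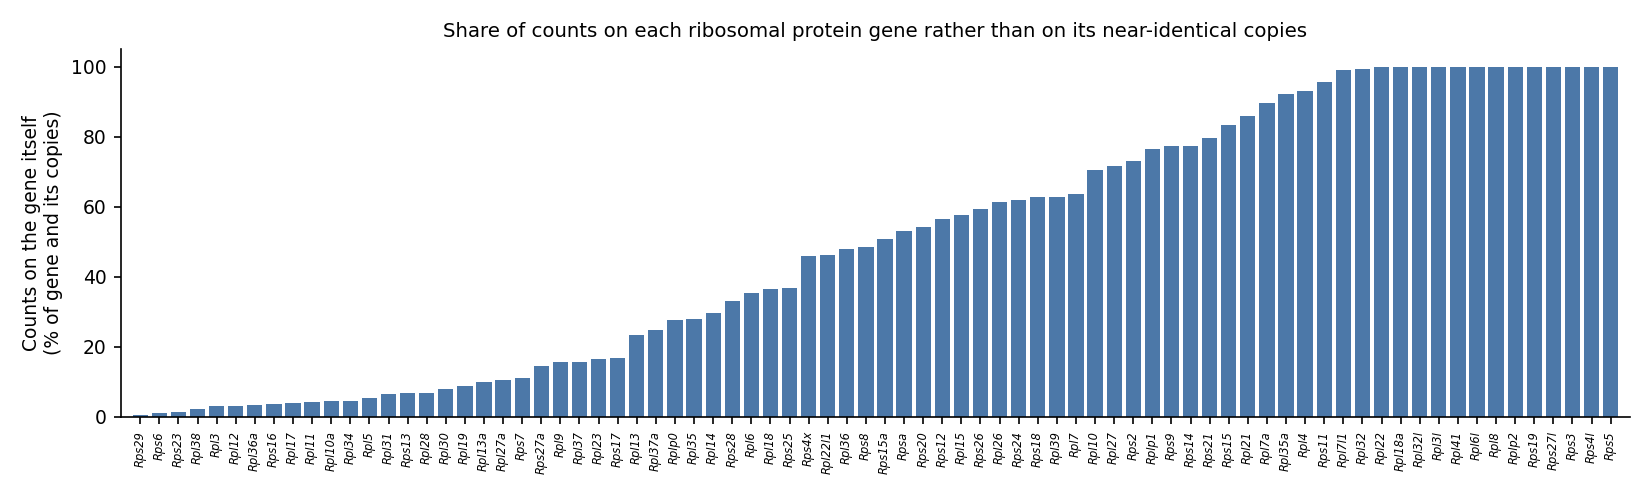
Share of the joint mean counts of a gene and its near-identical copies that fell on the gene itself, in percent (vertical axis), for the 78 ribosomal protein genes (horizontal axis, sorted; mean of 21 libraries). The bars span the range from under 2% (Rps29, Rps6, Rps23) to 100% for the 12 genes for which the search found no copy.

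The first 60 coding bases of Rpl3, of its main copy Rpl3-ps1 and of Rpl3l (GENCODE, GRCm38) show how close the copy is and how far the paralog. Capitals mark bases that differ from Rpl3.
Rpl3 (chromosome 15, 80077791 to 80091868, minus strand): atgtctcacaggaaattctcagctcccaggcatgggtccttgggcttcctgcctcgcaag
Rpl3-ps1 (chromosome X, 13202571 to 13203780, plus strand): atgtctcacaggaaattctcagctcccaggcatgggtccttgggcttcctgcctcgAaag
Rpl3l (chromosome 17, 24727820 to 24736143, plus strand): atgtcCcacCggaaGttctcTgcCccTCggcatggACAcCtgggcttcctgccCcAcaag
Over the coding sequence of 1209 bases the copy differed from Rpl3 at 2 bases (99.8% identity), and Rpl3l was 74.4% identical over the aligned part. Reads of Rpl3 and Rpl3l can therefore be told apart, and those of Rpl3 and Rpl3-ps1 mostly cannot.

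Levels per length were spread widely. On the scale of CPM (a gene's counts scaled to the library's total and by TMM, edgeR's correction for library composition) per kilobase of annotated exon, the median of the 78 genes was 20.1 and the range ran from 1.002 to 968. The 3 highest were Rplp1 with 968, Rps15 with 523 and Rpl4 with 304 CPM per kb. The 3 lowest were Rpl3 with 1.002, Rps13 with 1.02 and Rpl34 with 1.15 CPM per kb, all genes with more than 90% of their joint counts on copies.

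Together the 78 genes took 0.555% to 0.955% of all gene counts, a total that holds 0 genes of the mitochondrial genome. The 5 WT-CD libraries gave 0.669%, 0.694%, 0.714%, 0.746% and 0.777%. The 7 R403Q-CD libraries ran from 0.735% to 0.955% with a median of 0.847%, and all but the lowest lay above every WT-CD library. The 4 R403Q-EMPA libraries gave 0.780%, 0.785%, 0.927% and 0.940%, all above WT-CD. The WT-EMPA libraries were the most scattered, with 0.555%, 0.658%, 0.668%, 0.720% and 0.875%. The 95% Wilson interval of the lowest share, from 0.553% to 0.558%, covers counting error only and is far narrower than the spread between mice.

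The mean over the 78 genes of log2 CPM, set to 0 for the WT-CD mean, gave the same order. It was 0.184 ± 0.134 in R403Q-CD (SD, n = 7), 0.207 ± 0.148 in R403Q-EMPA (n = 4) and -0.072 ± 0.215 in WT-EMPA (n = 5), against a spread of ± 0.0798 in WT-CD (n = 5). In R403Q-CD the highest mouse was at 0.404 and the lowest at -0.0015. In WT-EMPA the highest, at 0.256, exceeded 5 of the 7 R403Q-CD mice, and the lowest was at -0.322. Mice of the same diet and different genotype shared cages, as the labels give them, and the R403Q mean was above the WT mean in 6 of 6 cages that held both. The differences were 0.308, 0.160, 0.278 and 0.0404 in the 4 cages on the control diet, and 0.230 and 0.356 in the 2 on EMPA. The remaining EMPA cage held WT mice only. No cage held both diets, so cage and diet cannot be told apart.

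**Figure D2:**
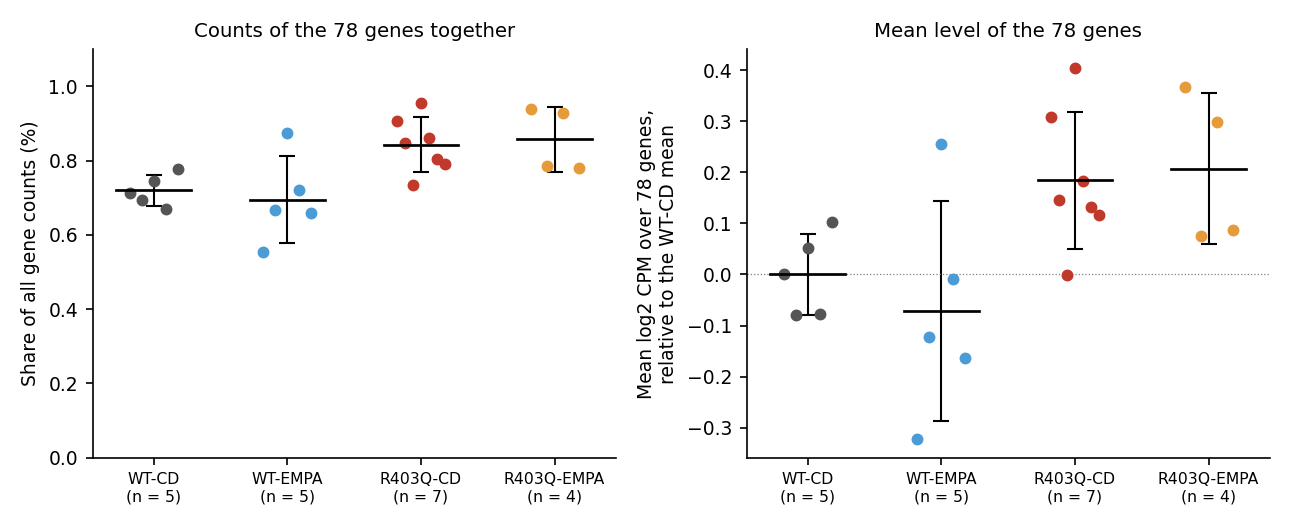
Left, share of all gene counts taken by the 78 ribosomal protein genes (percent); right, their mean log2 CPM relative to the WT-CD mean. Each point is a mouse, lines are group means and bars ± SD (n = 5, 5, 7 and 4). On the left all R403Q-EMPA mice and all but 1 of the R403Q-CD mice sit above every WT-CD mouse, and WT-EMPA spreads from 0.555% to 0.875%.

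The first question was whether the genes differed between R403Q and WT mice on the control diet. In R403Q-CD against WT-CD 0 of the 78 genes passed an adjusted p of 0.05 (edgeR's quasi-likelihood test, Benjamini-Hochberg adjustment over all 17309 genes tested), where 1.44% of all genes passed. Yet 75 of the 78 had a log2 fold change above 0, against 52.5% of all genes, and their median was 0.20 (1.15-fold) against 0.01 for all genes. An unadjusted p under 0.05 with a higher mean in R403Q-CD was reached by 25 genes of the 78 where the background was 11.8%, and with a lower mean by 1 (Rpl3l), where it was 9.15%. Without 1 mouse at a time the count of higher genes ran from 9 (without WT-CD replicate 2) to 36 (without R403Q-CD replicate 3). It was 10 without WT-CD replicate 4 or R403Q-CD replicate 4 and 14 without R403Q-CD replicate 1. With library size alone in place of TMM it was 48, and with copies added 40. Here and below, the share of all genes at an unadjusted p under 0.05 was computed only for the main edgeR fit (TMM, all mice, no copies added). Such counts from other fits therefore stand without a background. DESeq2's Wald test put 4 genes past its adjusted threshold, all higher in R403Q-CD (Rpl10, Rpl7, Rpl12 and Rpl6l), against 5.59% of all genes, and limma on the deposited values put 0.

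Both subunits gave like medians. The median log2 fold change was 0.20 for the 45 genes of the 60S subunit (43 above 0), 0.22 for the 30 of the 40S subunit (29 above 0) and 0.10 for the 3 stalk genes (all above 0). It was 0.21 for the 9 protein-coding genes for which no copy was found, of which 8 were above 0. The genes lying below 0 were Rpl28 (-0.10), Rps13 (-0.12) and Rpl3l (-0.36). For Rpl28 and Rps13 the sign turned once the counts of their copies were added, to 0.04 and 0.06, and for Rps13 also without WT-CD replicate 1 (0.0018).

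Rpl10, a late-joining 60S protein encoded on the X chromosome, had the smallest p. Its 5 WT-CD values were 4.61, 5.02, 5.34, 6.23 and 6.34 CPM. The 7 R403Q-CD values ran from 5.90 to 9.43 with a median of 7.58 CPM, so that all but the lowest lay above WT-CD. The log2 fold change was 0.49 (SE 0.13, edgeR, adjusted p = 0.0546). With copies added it was 0.47 (adjusted p = 0.0341, edgeR), an alternative added after the data were seen.

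Rpl7, a 60S protein, separated the groups fully. It had 218, 225, 234, 239.6 and 241 CPM in WT-CD, and from 252 to 313 CPM with a median of 284 in R403Q-CD. The log2 fold change was 0.28 (SE 0.0834, edgeR, adjusted p = 0.0762). Rpsa, the 40S protein also known as a laminin receptor, was the only other of the 78 whose groups did not overlap, with 145 to 174 CPM in WT-CD and 175 to 232 CPM in R403Q-CD (log2 fold change 0.24, SE 0.11, edgeR, adjusted p = 0.201). Over all genes 1.12% were higher in R403Q-CD without overlap. None of the 78 was lower without overlap, where 1.01% of all genes were.

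Among the other genes set out by role, Rps6 had 1.16, 1.48, 1.69, 1.79 and 1.97 CPM in WT-CD and 1.196 to 2.44 with a median of 2.38 CPM in R403Q-CD. Its log2 fold change was 0.43 (SE 0.16, edgeR, adjusted p = 0.143), and 0.22 with its copies. Rpl5 and Rpl11, which bind 5S RNA and hold back the p53 inhibitor Mdm2 when assembly fails, had log2 fold changes of 0.13 (SE 0.0895) and 0.20 (SE 0.12). Rpl13a, a protein also known from the control of inflammatory messages, had 0.25 (SE 0.11). Rps27a, made as a fusion with ubiquitin, had 0.10 (SE 0.14). The stalk genes, whose proteins recruit elongation factors, had 0.10 for Rplp0, 0.17 for Rplp1 and 0.04 for Rplp2 (SE 0.0775, 0.11 and 0.0826). Every one of these lay above 0 and none passed the adjusted threshold.

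On EMPA the same genotype comparison rests on different mice. In R403Q-EMPA against WT-EMPA 0 of the 78 passed the adjusted threshold (background 0.0578%), 73 had a log2 fold change above 0 (background 51.7%) and the median was 0.28 (1.21-fold) against 0.01 for all genes. An unadjusted p under 0.05 was reached by 49 genes with a higher mean in R403Q-EMPA of the 78 where the background was 8.14%, and by 0 with a lower mean where it was 6.56%. With these 2 groups fitted alone the count of higher genes was 40, and with cage added to that fit it was 14, with a median of 0.29. The 3 WT mice of the cage without R403Q mice do not enter the genotype contrast of that cage fit. It rests on 2 cages, each with 1 WT and 2 R403Q mice. Without 1 mouse at a time the count of higher genes ran from 21 (without R403Q-EMPA replicate 1) to 63 (without WT-EMPA replicate 3), and was 22 without WT-EMPA replicate 1 and 24 without R403Q-EMPA replicate 3. DESeq2's Wald test put 5 past its adjusted threshold (Rps16, Rpl11, Rps7, Rpl38 and Rpl35a, all higher), against 1.78% of all genes, and limma put 0. Not one of the 78 separated the groups without overlap, where 3.35% of all genes were higher and 3.41% lower in that way.

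Rps16, a 40S protein, led this comparison. Its values were 3.76, 4.39, 5.42, 5.75 and 6.90 CPM in WT-EMPA and 6.42, 7.98, 8.71 and 9.77 CPM in R403Q-EMPA. The log2 fold change was 0.65 (SE 0.16, edgeR, adjusted p = 0.0942) and 0.35 with its copies. Rpl11 had 3.98, 4.14, 4.21, 4.97 and 6.27 CPM in WT-EMPA against 6.12, 6.66, 6.83 and 7.29 CPM in R403Q-EMPA (log2 fold change 0.51, SE 0.13, edgeR, adjusted p = 0.108). Rpl38 and Rpl35a, both 60S, and the pseudogene Rpl32l had log2 fold changes of 0.64, 0.57 and 0.69 (SE 0.18, 0.16 and 0.21). For Rps16 and Rpl11 a single WT-EMPA mouse, replicate 3, reached into the R403Q-EMPA range. That mouse also had the highest share of ribosomal protein counts in its group. Without it 7 of the 78 passed the adjusted threshold and the median was 0.35, and without WT-EMPA replicate 1, the lowest of its group, 0 passed and the median was 0.21. The share of all genes past the threshold was not computed for these fits, so the 7 stand without a background.

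Of the 78 genes 72 were higher in R403Q on both diets, 2 were lower on both (Rpl3l and Rps13), and the 2 comparisons share no library. The Pearson correlation of the differences on the 2 diets was 0.24 across the 78 genes, which are not independent. Rpl10 was at 0.49 on the control diet and 0.10 on EMPA, and Rps16 at 0.20 and 0.65. The test of the difference itself, the interaction of genotype and diet in edgeR, put 0 of the 78 past the adjusted threshold (background 0%). At an unadjusted p under 0.05 it put 1 gene (Rps16, log2 0.45, SE 0.21), where the background was 1.46% for a value above 0 and 1.82% for one below. With copies added Rps16 stood at 0.12 and the counts were 0 above and 1 below 0, and with library size alone both were 0. Without WT-EMPA replicate 3 the count above 0 was 10, with a median of 0.19 and 69 genes above 0, and without WT-EMPA replicate 1 it was 0, with a median of 0.03 and 45 above 0. With all mice the interaction lay above 0 for 59 of the 78 (background 49.8%) with a median of 0.09, and DESeq2 and limma put 0 past their adjusted thresholds. The interaction for Rpl10 was -0.40 (SE 0.20, edgeR, adjusted p = 0.999).

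**Figure D3:**
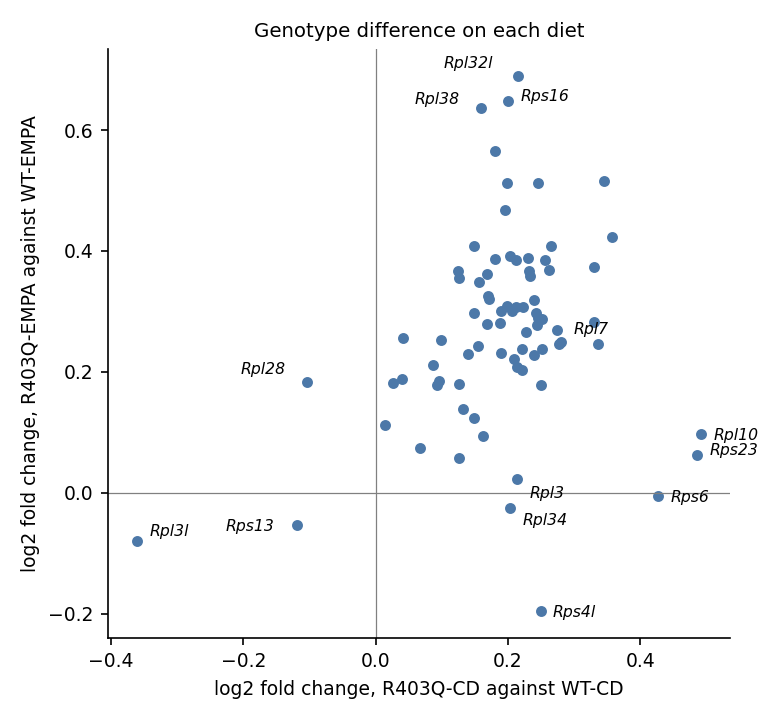
Log2 fold change of R403Q against WT for each of the 78 genes, on the control diet (horizontal axis) and on EMPA (vertical axis). Most points (72) lie above 0 on both axes, Rpl3l and Rps13 lie below 0 on both axes, and Rpl10 and Rps16 are far out on one axis each.

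The diet comparisons centred near 0. In R403Q-EMPA against R403Q-CD 0 of the 78 passed (background 0.0116%), 51 had a log2 fold change above 0 (background 49.2%) and the median was 0.04. Lower means with an unadjusted p under 0.05 were found for 2 genes, Rpl10 and Rps4l, where the background was 6.36%, and higher means for 0, where it was 7.06%. Rpl10 had 5.12, 5.18, 6.12 and 6.36 CPM in R403Q-EMPA against the 5.90 to 9.43 of R403Q-CD, a log2 fold change of -0.44 (SE 0.14, edgeR, adjusted p = 0.199). Rps4l, annotated as a processed pseudogene, had 4.75, 5.32, 7.25 and 10.3 CPM against 6.92 to 13.4 (log2 fold change -0.50, SE 0.21, edgeR, adjusted p = 0.312). Both sets of values overlap, as did those of the other 76 genes, where 0.953% of all genes were higher and 0.664% lower without overlap. The median turned negative, to -0.03, without R403Q-EMPA replicate 1.

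In WT-EMPA against WT-CD 0 of the 78 passed (background 0.0289%), 16 had a log2 fold change above 0 (background 49.1%) and the median was -0.06. An unadjusted p under 0.05 was reached by 1 gene with a higher mean (Rps6, 0.37, SE 0.17) where the background was 5.94%, and by 2 with a lower mean (Rpl15, -0.20, SE 0.0838, and Rpl31, -0.25, SE 0.12) where it was 5.08%. With copies added, Rps6 stood at 0.03, and Rpl31 turned from below to above 0, at 0.06. The median without 1 mouse at a time ran from -0.14 (without WT-EMPA replicate 3) to -0.01 (without WT-EMPA replicate 1). Without replicate 3 of WT-EMPA 14 genes were lower at an unadjusted p under 0.05 and 1 of the 78 lay above 0, and without replicate 1 there were 0 lower and 34 above 0. Without WT-CD replicate 3 or 5 there were also 0 lower, with 26 above 0 in each. All 78 genes overlapped between these groups, where 1.87% of all genes were higher and 1.59% lower without overlap. DESeq2 put 0 of the 78 past the adjusted threshold in R403Q-EMPA against R403Q-CD (background 0.937%) and in WT-EMPA against WT-CD (background 0.737%), and limma put 0 in both. The genotype and diet comparisons share their groups. All 5 red cell markers had a log2 fold change above 0 on EMPA in both genotypes, with a median of 0.63 in each. All 5 smooth muscle and pericyte markers lay below 0 in both, with medians of -0.71 in R403Q and -0.37 in WT mice. Of the 4 atrial markers 3 lay below 0 in each, with medians of -3.21 and -1.41. Not one of these markers passed the adjusted threshold, and their part in the ribosomal protein values was not tested.

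**Figure D4:**
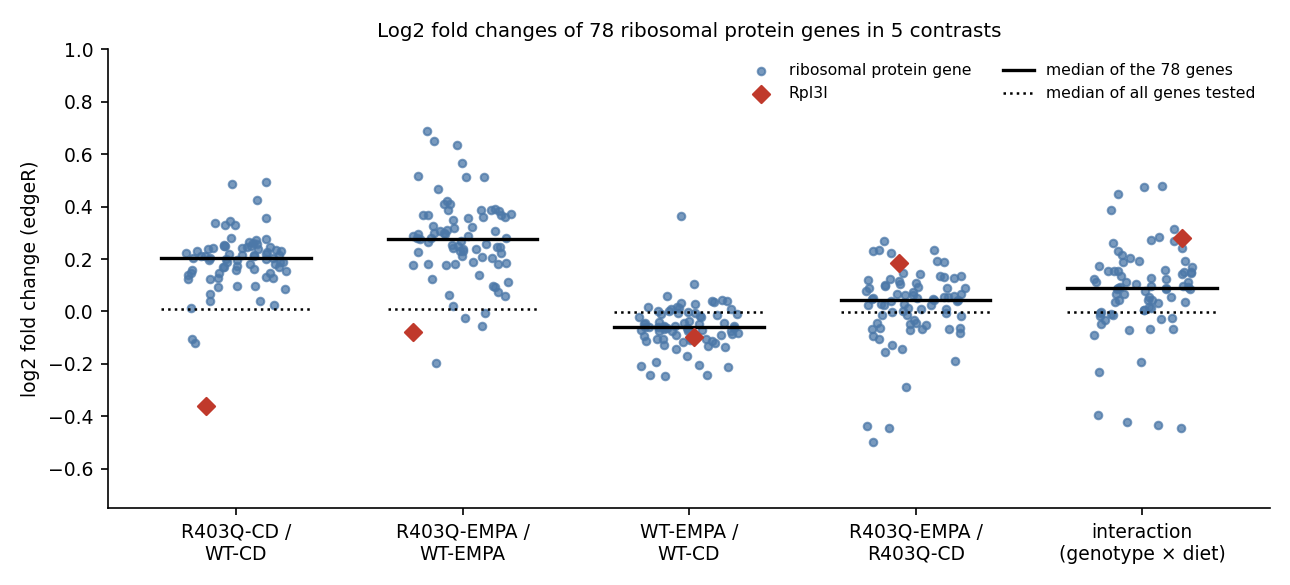
Log2 fold changes (vertical axis) of the 78 genes in the 5 contrasts, with Rpl3l as a diamond, the median of the 78 genes as a solid line and that of all 17309 genes tested as a dotted line. The median of the 78 stands at 0.20 and 0.28 in the genotype comparisons, -0.06 and 0.04 in the diet comparisons and 0.09 in the interaction.

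The genes varied together from mouse to mouse. Over the 21 libraries the median Pearson correlation of log2 CPM between 2 of the 78 genes was 0.70, and 0.63 once the group means had been taken out, with 93.9% of pairs above 0. With group means removed, Rps18, Rps3 and Rps15 followed the others most closely, with median correlations of 0.88, 0.87 and 0.87 to the remaining genes. Rpl3 (-0.10) and Rps4l (-0.06) followed them least, followed by Rps13, Rpl28, Rpl10a and Rps6 (0.08 to 0.14). Rpl3, Rps13, Rpl28, Rpl10a and Rps6 each hold under 10% of their joint counts, and are among 19 of the 78 genes that do. The points share library and scaling, and the libraries are few, so these correlations are a description.

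Rpl3l and Rpl3 encode alternative versions of the same 60S protein. Rpl3l had 331, 369, 373, 396 and 422 CPM in WT-CD. In R403Q-CD it ran from 155 to 351 CPM with a median of 321. In WT-EMPA it had 329, 352, 359, 360 and 370 CPM, and in R403Q-EMPA 311, 313, 332 and 384 CPM. Of the 7 R403Q-CD values 4 thus lay below the WT-CD range and 3 within it, and both EMPA groups overlapped. The log2 fold change of R403Q-CD against WT-CD was -0.36 (SE 0.14, edgeR, adjusted p = 0.148, unadjusted p = 0.0157), the furthest below 0 of the 78 genes. The mean of the 7 R403Q-CD mice was 294 ± 71.7 CPM and of the 5 WT-CD mice 378 ± 33.6 CPM (SD).

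The lowest Rpl3l value, 155 CPM, came from R403Q-CD replicate 2. This library also had the lowest share of Myh6 counts, 1.95% where the other R403Q-CD libraries had 3.09% to 3.99%, and the highest summed level of 6 fibroblast markers, 4862 CPM where the others had 1467 to 2560. Its 4 atrial markers summed to 628 CPM, where the other R403Q-CD libraries had 17.0 to 173.6. The next lowest Rpl3l value, 243 CPM, came from replicate 5, which was second in Myh6 share and fibroblast markers, with 50.6 CPM of atrial markers. Without replicate 2 the log2 fold change of Rpl3l was -0.26 (edgeR, adjusted p = 0.121). The part of cell composition, atrial tissue included, in the Rpl3l values was not tested. Fewer cardiomyocytes and less Rpl3l RNA per cardiomyocyte cannot be told apart in bulk tissue.

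The Rpl3 row overlapped between the groups. It had 2.65, 2.86, 2.95, 3.19 and 3.39 CPM in WT-CD and 2.43 to 4.18 with a median of 3.75 CPM in R403Q-CD (log2 fold change 0.21, SE 0.14, edgeR, adjusted p = 0.390). With its 7 copies, of which Rpl3-ps1 held a mean of 3316.6 counts and no other more than 1.76, Rpl3 had 71.7, 75.7, 88.5, 88.6 and 94.8 CPM in WT-CD and 98.0 to 175 with a median of 115 CPM in R403Q-CD, so that the groups did not overlap. That joint level had a log2 fold change of 0.55 (SE 0.13, edgeR, adjusted p = 0.0388) and with Rpl10 was 1 of 2 joint levels past the threshold, where 1.52% of all genes passed. The highest R403Q-CD values, 175 and 150 CPM, came from replicates 2 and 5, the libraries with the lowest Myh6 share and the most fibroblast marker counts in their group. Without both the log2 fold change was 0.34 (SE 0.0926, edgeR, adjusted p = 0.0961). Without 1 mouse of the control diet at a time it ran from 0.43 (without R403Q-CD replicate 2) to 0.59 (without WT-CD replicate 5), and the adjusted p missed 0.05 without R403Q-CD replicate 5 (0.0838) and without WT-CD replicate 1, 2, 3 or 4 (0.0912, 0.0672, 0.115 and 0.117). The part of cell makeup in this level was not tested. On EMPA the joint level had 69.9, 80.5, 85.6, 90.1 and 104 CPM in WT and 92.3, 107.5, 108.2 and 109.8 CPM in R403Q.

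**Figure D5:**
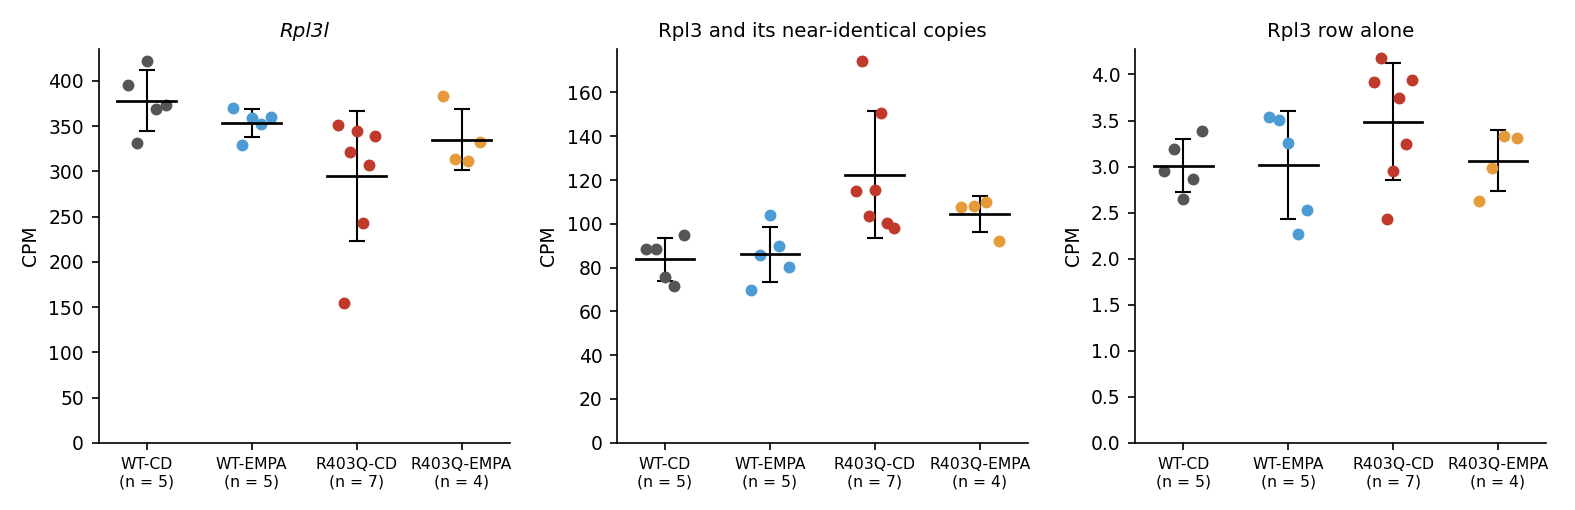
CPM of Rpl3l (left), of Rpl3 together with its near-identical copies (middle) and of the Rpl3 row alone (right) in each mouse. Points are mice, lines group means and bars ± SD (n = 5, 5, 7 and 4). R403Q-CD holds the lowest Rpl3l values (155 and 243 CPM) and, in the middle panel, lies wholly above WT-CD.

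The ratio of Rpl3l to Rpl3 counts was taken within each mouse, with 0.5 counts added to both. Against the Rpl3 row alone the WT-CD mice averaged 127 ± 21.6 (SD, n = 5) and the R403Q-CD mice 88.3 ± 31.3 (n = 7). On EMPA the WT mice averaged 121 ± 26.0 (n = 5) and the R403Q mice 111 ± 23.6 (n = 4). The difference of mean log2 ratios between R403Q-CD and WT-CD was -0.60 (2-sided exact permutation p = 0.0518, adjusted p = 0.207 over 4 comparisons). The other comparisons differed by 0.40 (R403Q-EMPA against R403Q-CD), -0.08 (WT-EMPA against WT-CD) and -0.12 (R403Q-EMPA against WT-EMPA), with exact permutation p of 0.279, 0.659 and 0.571.

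With the copies counted as Rpl3 the ratio was far smaller, 4.57 ± 0.780 in WT-CD, 2.597 ± 0.955 in R403Q-CD, 4.19 ± 0.709 in WT-EMPA and 3.22 ± 0.416 in R403Q-EMPA (SD, same n). Its 5 WT-CD values, 3.74, 3.94, 4.46, 5.14 and 5.57, lay above all 7 of R403Q-CD, which ran from 0.887 to 3.46 with a median of 3.06. The difference in mean log2 ratio was -0.92, a ratio of 0.527 (2-sided exact permutation p = 0.00631, adjusted p = 0.0253). Without R403Q-CD replicate 2 it was -0.69 (exact permutation p = 0.00216, the smallest this size allows, adjusted p = 0.00866). Leaving out any one of the 5 WT-CD mice raised the adjusted p to between 0.0794 and 0.0909, with differences of -0.85 to -0.99. On EMPA the difference between genotypes was -0.37 (exact permutation p = 0.0397, adjusted p = 0.0794). Per kilobase of coding sequence Rpl3l stood at 310 ± 27.5 CPM in WT-CD and Rpl3 with copies at 69.4 ± 8.07, and in R403Q-CD at 241 ± 58.7 and 101 ± 24.0 CPM (SD, n = 5 and 7).

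Other pairs of paralogs are given side by side, and the differences between the members of a pair were not tested. Rpl22, a 60S protein that binds RNA, and its paralog Rpl22l1 had log2 fold changes of 0.19 (SE 0.0846) and 0.23 (SE 0.11) in R403Q-CD against WT-CD, and of 0.28 (SE 0.0963) and 0.36 (SE 0.13) on EMPA. Their mean levels in WT-CD were 52.7 and 8.32 CPM per kb of annotated exon (n = 5). Rpl7 stood at 0.28 and its relative Rpl7l1 at 0.07 (SE 0.0834 and 0.0597) on the control diet, and at 0.25 and 0.07 on EMPA. Rpl6 and the pseudogene Rpl6l had 0.21 and 0.27 (SE 0.0815 and 0.0824), and Rpl32 and the pseudogene Rpl32l 0.20 and 0.22 (SE 0.11 and 0.19). Rps27l, a p53-responsive relative of Rps27, had 0.26 (SE 0.10) on the control diet and 0.41 (SE 0.12) on EMPA. None of these passed the adjusted threshold.

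Genes of neighbouring roles were read from lists. Over all genes 52.5% and 51.7% had a log2 fold change above 0 in the genotype comparisons on the control diet and on EMPA, and 1.44% and 0.0578% passed the adjusted threshold. Of 20 genes listed as known TOP genes, elongation factors among them, 13 had a start-site entry and 6 of these held a run of 7 or more C or T in the window of any annotated start. Of the 20, 16 had a log2 fold change above 0 in R403Q-CD against WT-CD and 16 on EMPA, with medians of 0.07 and 0.19. One passed, Eef1a1, the factor that brings aminoacyl-tRNA to the ribosome, with mean levels of 683 CPM in WT-CD and 990 CPM in R403Q-CD (log2 fold change 0.54, SE 0.12, edgeR, adjusted p = 0.0253). In that list Rack1, Rps3a1 and Fau, ribosomal proteins with other symbols, had log2 fold changes of 0.16, 0.24 and 0.06 on the control diet and of 0.22, 0.35 and 0.24 on EMPA. Of 29 initiation factors 19 and 13 were above 0, with medians of 0.04 and -0.00. Eif1a was the only one past the threshold, higher in R403Q-CD (0.44, SE 0.11, edgeR, adjusted p = 0.0419). Of 50 ribosome biogenesis genes 31 and 38 were above 0 (medians 0.04 and 0.07), and of 18 genes of the path from mTORC1 to the ribosome 5 and 4 were (medians -0.10 and -0.08), with 0 past the threshold. The list of 18 mixes genes that drive the path with genes that restrain it, such as Tsc1 and Tsc2. Its medians therefore give no direction for the path.

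Mitochondrial ribosomal proteins belong to a separate ribosome. Of 77 tested, 29 were above 0 in R403Q-CD against WT-CD (median -0.05), 61 in R403Q-EMPA against WT-EMPA (median 0.12) and 3 in WT-EMPA against WT-CD (median -0.12), and 0 passed in any of these. At an unadjusted p under 0.05 there were 7 lower, 10 higher and 10 lower genes in these 3 comparisons, where the backgrounds were 9.15%, 8.14% and 5.08% of all genes, and 0 in the opposite direction. The interaction lay above 0 for 73 of the 77 (median 0.14, background 49.8%), with 8 higher and 0 lower at an unadjusted p under 0.05 (background 1.46% and 1.82%) and 0 past the adjusted threshold.

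Several other measures moved with genotype. Short protein-coding transcripts that are no ribosomal protein gene (under 1000 nt of exon, 285 tested) had a median log2 fold change of 0.09 on the control diet, with 69.5% above 0, and of 0.21 on EMPA, with 80% above 0. The summed level of 5 macrophage markers was 118.6 to 155.0 CPM in WT-CD and 155.4 to 241.3 in R403Q-CD, and 110 to 161 in WT-EMPA and 163 to 219 in R403Q-EMPA, without overlap on either diet, and none of these markers was at 0. All 5 had log2 fold changes above 0 on both diets (medians 0.59 and 0.50). On the control diet 3 passed the adjusted threshold (Csf1r, Cd14 and Adgre1), and on EMPA 0 did. Of 4 lymphocyte markers tested 2 lay above 0 on each diet. Of these 4 only Ptprc passed, on the control diet (log2 fold change 0.59, edgeR, adjusted p = 0.0187). The 6 fibroblast markers summed to 995 to 1538 CPM in WT-EMPA and 1601 to 1969 in R403Q-EMPA, and overlapped on the control diet. All 6 had log2 fold changes above 0 in R403Q on both diets, with medians of 0.73 on the control diet and 0.45 on EMPA. None of the 6 passed the adjusted threshold. The 6 cardiomyocyte markers summed to 79082 to 92518 CPM in WT-EMPA and 67484 to 77046 in R403Q-EMPA, and overlapped on the control diet, with 80152 to 88812 in WT-CD and 49886 to 81053 in R403Q-CD. All 4 adipocyte markers (medians 0.35 and 0.76), all 5 red cell markers (0.25 and 0.26) and all 5 endothelial markers (0.08 and 0.05) had log2 fold changes above 0 in R403Q on the control diet and on EMPA, with 0 past the adjusted threshold. The 4 atrial markers lay above 0 on the control diet (median 0.78) and below 0 on EMPA (median -1.02). The part of transcript length and of cell makeup in the ribosomal protein values was not tested.

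The libraries held 23491535 to 43539684 counts, so that 3 counts, the limit taken for a gene listed at 0, corresponded to at most 0.127 CPM. All 78 genes were tested. Heart tissue was borne out by Myh6, at 1.95% to 5.19% of counts, which does not by itself mark the left ventricle. The 4 atrial markers summed to 17.0 to 278.5 CPM outside R403Q-CD replicate 2. The highest of these were 278.5 CPM in WT-CD replicate 5 and 173.6 CPM in R403Q-CD replicate 6. How much atrial tissue the samples held was not tested. Of 5 skeletal muscle markers 4 had a mean of under 10 counts.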

How the data were processed

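Left ventricular RNA of 21 mice was measured by polyadenylated RNA sequencing. Per the study's methods and the labels, the authors aligned read pairs to mm10 with STAR 2.6.0c and made the deposited counts with featureCounts (Subread 1.6.2), which took uniquely aligned proper pairs on Ensembl genes outside the mitochondrial genome. The authors also deposited log2-scale values, made with the variance-stabilizing transformation of DESeq2 1.32.0. Symbols, positions, exon lengths and coding sequences came from GENCODE M21 (GRCm38), which may differ from the authors' annotation, and start sites from RefSeq. Genes were kept with filterByExpr (minimum count 10), scaled by TMM and tested in a single 4-group fit with edgeR 4.0.16 in R 4.3.3 over 17309 genes. Copies were found with BLAST 2.17.0. The ratio was tested by exact permutation. Alternatives were DESeq2 1.42.0, limma 3.58.1, no filter, library size alone, TMM without the 78 genes, members with a mean count of 500 or more, fits of 3 or 2 groups, cage as a factor, each mouse left out, and, added after the data were seen, copies added and, with them, control-diet mice left out for Rpl3. Tests were tried on simulated data. Members and lists were chosen with earlier results of these data known. Named genes were a fixed set, the paralogs, the 3 higher and 3 lower with the smallest p per contrast, and the 3 highest and 3 lowest per length; Rpl12, Rps18, Rps3, Rpl10a and other genes outside this rule were named after their values were seen. The values of 1 listed gene are not reported here.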

Additional observations from a re-analysis of the deposited data

Results flagged for a closer look

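Single libraries stood far from the rest of their group for 6 of the 156 combinations of a value and a group that were examined, by a gap test at its 95% critical value, so that chance alone flags about 1 in 20. R403Q-CD replicate 3 was low for Rps6, with 1.196 CPM where the others had 2.19 to 2.44, and for Rpl34, with 1.83 CPM where the others had 3.33 to 4.16. WT-EMPA replicate 3 was high for Rps27a, with 5.81 CPM where the others had 3.14 to 3.68. R403Q-CD replicate 4 was high for Rps27l, with 66.5 CPM where the others had 50.6 to 57.4. WT-CD replicate 2 was low for Rpsa, with 145 CPM where the others had 169 to 174. R403Q-EMPA replicate 4 was low for Rpl3 with its copies, with 92.3 CPM where the others had 108 to 110.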

How the results depend on the processing

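The medians of the 78 genes kept their direction in both genotype comparisons under all alternatives run, and without 1 mouse at a time ran from 0.15 to 0.23 on the control diet and from 0.21 to 0.35 on EMPA. Library size alone in place of TMM shifted the median of all genes to 0.08 and 0.06 in these comparisons and that of the 78 genes to 0.27 and 0.33. The count of 0 past the threshold was less stable, and the cause was not tested. In R403Q-CD against WT-CD it became 4 with DESeq2, 3 with library size alone and 2 with copies added, and ranged from 0 to 5 without 1 mouse at a time (5 without R403Q-CD replicate 3, 1 without R403Q-CD replicate 1). In R403Q-EMPA against WT-EMPA it became 5 with DESeq2 and ranged from 0 to 7 without 1 mouse (7 without WT-EMPA replicate 3). The share of all genes past the threshold was not computed with library size alone or with 1 mouse left out.

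With copies added, the Rpl3l to Rpl3 log2 ratio of R403Q-CD against WT-CD was -0.92 and passed its threshold (exact permutation, adjusted p = 0.0253). In WT-EMPA against WT-CD that ratio without copies ran from -0.17 to 0.0065 without 1 mouse, turning sign without WT-EMPA replicate 2 or WT-CD replicate 3.

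Signs of single genes turned, most of them from within 0.2 of 0, but Rps23 from -0.43 and Rpl31 from -0.25. With copies added the log2 fold changes were 0.037 for Rpl28 and 0.061 for Rps13 (R403Q-CD against WT-CD), 0.046 for Rps23 (R403Q-EMPA against R403Q-CD), 0.063 for Rpl31 (WT-EMPA against WT-CD), and 0.054 for Rps13 and 0.18 for Rps6 (R403Q-EMPA against WT-EMPA). In the last comparison cage as a factor gave 0.031 for Rps13 and 0.26 for Rps4l, and library size alone 0.046 for Rps6. Without 1 mouse at a time, Rps13 ran from -0.22 to 0.0018 in R403Q-CD against WT-CD. In WT-EMPA against WT-CD Rpl22l1 ran from -0.019 to 0.18 and Rpsa from -0.052 to 0.14. In R403Q-EMPA against WT-EMPA Rpl3 ran from -0.064 to 0.088, Rps13 from -0.15 to 0.043 and Rps6 from -0.044 to 0.073. Mice carry no shared replicate numbers, and cage was the only block, within a diet. It left the medians at 0.20 and 0.29 and 0 past the threshold in both genotype comparisons. The cage fits held only the WT and R403Q mice of a diet. With cage 31 and 14 genes were higher at an unadjusted p under 0.05, and the same fits without it had 33 and 40. Depth limits the genes with low counts of their own, such as Rps6 and Rpl3.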
